A study of Mus musculus with 6 samples.

Results

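The ADAM, ADAMTS and ADAMTSL genes of mouse liver were examined as all rows of the deposited count table whose symbol is Adam, Adamts or Adamtsl followed by a number, with a letter allowed after the number of an Adam gene. There were 41 such genes among the 16603 of the table: 18 ADAM, 18 ADAMTS and 5 ADAMTSL genes. Bulk RNA-seq of liver gave 3 libraries labelled Mdr2-knockout (titles Mdr2-/-) and 3 labelled wild-type (titles WT). The labels give no age, sex, strain, allele, diet or treatment for either group. Nor do they tie the samples to individual animals, so the p-values below reflect only sample-to-sample spread, part of which may be technical. The series places the comparison in a study of hepatic progenitor cells, ductular reaction and liver fibrosis. Mdr2, encoded by Abcb4, exports phosphatidylcholine from hepatocytes into bile, and mice without it develop chronic injury around the bile ducts.

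ADAM proteins are membrane-anchored relatives of snake venom metalloproteinases, and the active ones cut the outer parts of other membrane proteins, a step called shedding, which releases growth factors, cytokines and adhesion molecules. ADAMTS proteins are secreted, carry thrombospondin repeats that hold them in the extracellular matrix, and cut proteoglycans, procollagens and von Willebrand factor. ADAMTSL proteins have the repeats of the ADAMTS proteins without a protease domain and bind fibrillin microfibrils. In the liver, mesenchymal cells such as stellate cells are a known source of several ADAMTS proteins, ADAMTS13 among them.

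The protease domain binds zinc through a histidine-rich signature, which an active member of the family needs for cutting. A form of this signature was searched in frame, on the coding strand, in the longest annotated coding sequence of each gene (GENCODE M21, GRCm38). In codons it read His Glu X X His X X X X X His Asp, with X any codon, so the eighth codon was left free. Metzincin proteases with another residue in place of Asp could not match. This pattern was found in 29 of the 41 members and in 42 of 21877 genes with a coding sequence (0.192%). The share is that of this pattern, not of all metzincins. The 12 members without a match were all 5 ADAMTSL genes, Adam11, Adam22 and Adam23, and the reproductive tract genes Adam2, Adam4, Adam5 and Adam32. The stretches below, 5′ to 3′ on the coding strand, show the signature of members on which the results turn, with its 36 bases in capitals and 12 bases on each side in lower case.
Adam9: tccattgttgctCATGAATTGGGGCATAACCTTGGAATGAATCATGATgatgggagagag
Adam10: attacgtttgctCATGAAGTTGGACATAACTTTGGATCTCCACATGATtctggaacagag
Adam17: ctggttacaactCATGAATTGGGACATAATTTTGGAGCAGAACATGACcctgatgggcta
Adam19: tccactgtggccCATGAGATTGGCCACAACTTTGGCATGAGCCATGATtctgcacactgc
Adamts1: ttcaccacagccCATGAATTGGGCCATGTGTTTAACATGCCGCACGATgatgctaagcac
Adamts9: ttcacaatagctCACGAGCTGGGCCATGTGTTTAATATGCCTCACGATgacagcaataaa
Adamts15: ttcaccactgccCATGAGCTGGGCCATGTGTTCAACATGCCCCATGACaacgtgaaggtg
Adamts5: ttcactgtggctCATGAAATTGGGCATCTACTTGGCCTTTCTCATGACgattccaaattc
Adamts2: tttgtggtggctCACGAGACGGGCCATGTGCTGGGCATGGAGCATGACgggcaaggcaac
Adamts12: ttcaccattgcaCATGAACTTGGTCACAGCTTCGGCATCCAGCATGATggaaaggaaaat
The stretches of 3 genes lie within a coding exon: Adam9 at chr8:24990311-24990370 (exon 11), Adam17 at chr12:21336717-21336776 (exon 12), Adam19 at chr11:46125038-46125097 (exon 11). The others are joined across an intron: Adam10 at chr9:70754284-70761600 (exons 9 and 10), Adamts1 at chr16:85799176-85799557 (exons 3 and 4), Adamts9 at chr6:92905270-92908505 (exons 8 and 9), Adamts15 at chr9:30911240-30911702 (exons 2 and 3), Adamts5 at chr16:85878000-85887838 (exons 2 and 3), Adamts2 at chr11:50775391-50776149 (exons 7 and 8), Adamts12 at chr15:11241517-11255579 (exons 7 and 8). The eighth codon of the signature differed between the members. It began with GG in 23 of the 29, with AA in Adamts1, Adamts4, Adamts9, Adamts15 and Adamts20, and with AG in Adamts8. These 6 all belong to the ADAMTS proteases known to cleave proteoglycans, of which Adamts5 alone carried GG. A match to the signature describes the sequence and was not a measure of activity.

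The libraries held 17100393 to 18124467 counts each. Abcb4, the targeted gene, had 499.6, 513 and 434 CPM (counts scaled to a common library size with TMM factors) in labelled Mdr2-knockout replicates 1 to 3, against 329.9, 369 and 273 CPM in labelled wild-type replicates 1 to 3. The labelled Mdr2-knockout group was thus the higher one, by 0.57 on the log2 scale (SE 0.12, edgeR adjusted p = 0.00389). The count covers the whole gene and the labels do not say what the allele removes, so it cannot check the genotype. Since the higher level stood under the knockout label and the genotype was not checked, libraries are called by their labels throughout. Every direction is one between labelled libraries. The wild-type columns of the table were assigned by elimination from their letter, and each direction rests on that reading.

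Of the 41 members, 28 passed the filter on low counts and were tested, and 13 did not. With edgeR, 16 of the 28 had a higher level under the Mdr2-knockout label at an adjusted p under 0.05, 0 were lower and 12 did not pass. The count of lower members was also 0 at an unadjusted p under 0.05, and 0 with DESeq2 and limma-voom. Among all 12612 tested genes, 20.9% were called higher and 16.3% lower, 37.1% in either direction. At least 2-fold increases were called for 13 members, against 11.1% of all tested genes. The median log2 fold change of the tested members was 0.88, beside 0.01 for all tested genes. Every labelled Mdr2-knockout library lay above every labelled wild-type library for 20 of the 28, a pattern found in 27.6% of all tested genes. The filter bears on these counts, because a gene low in wild-type can enter through the other group. Of the 28, 19 exceeded the filter level of 0.568 unscaled CPM in all 3 labelled wild-type libraries, and 11 of those 19 were called higher. The other 9, with 5 calls, exceeded it in fewer labelled wild-type libraries.

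**Figure D1:**
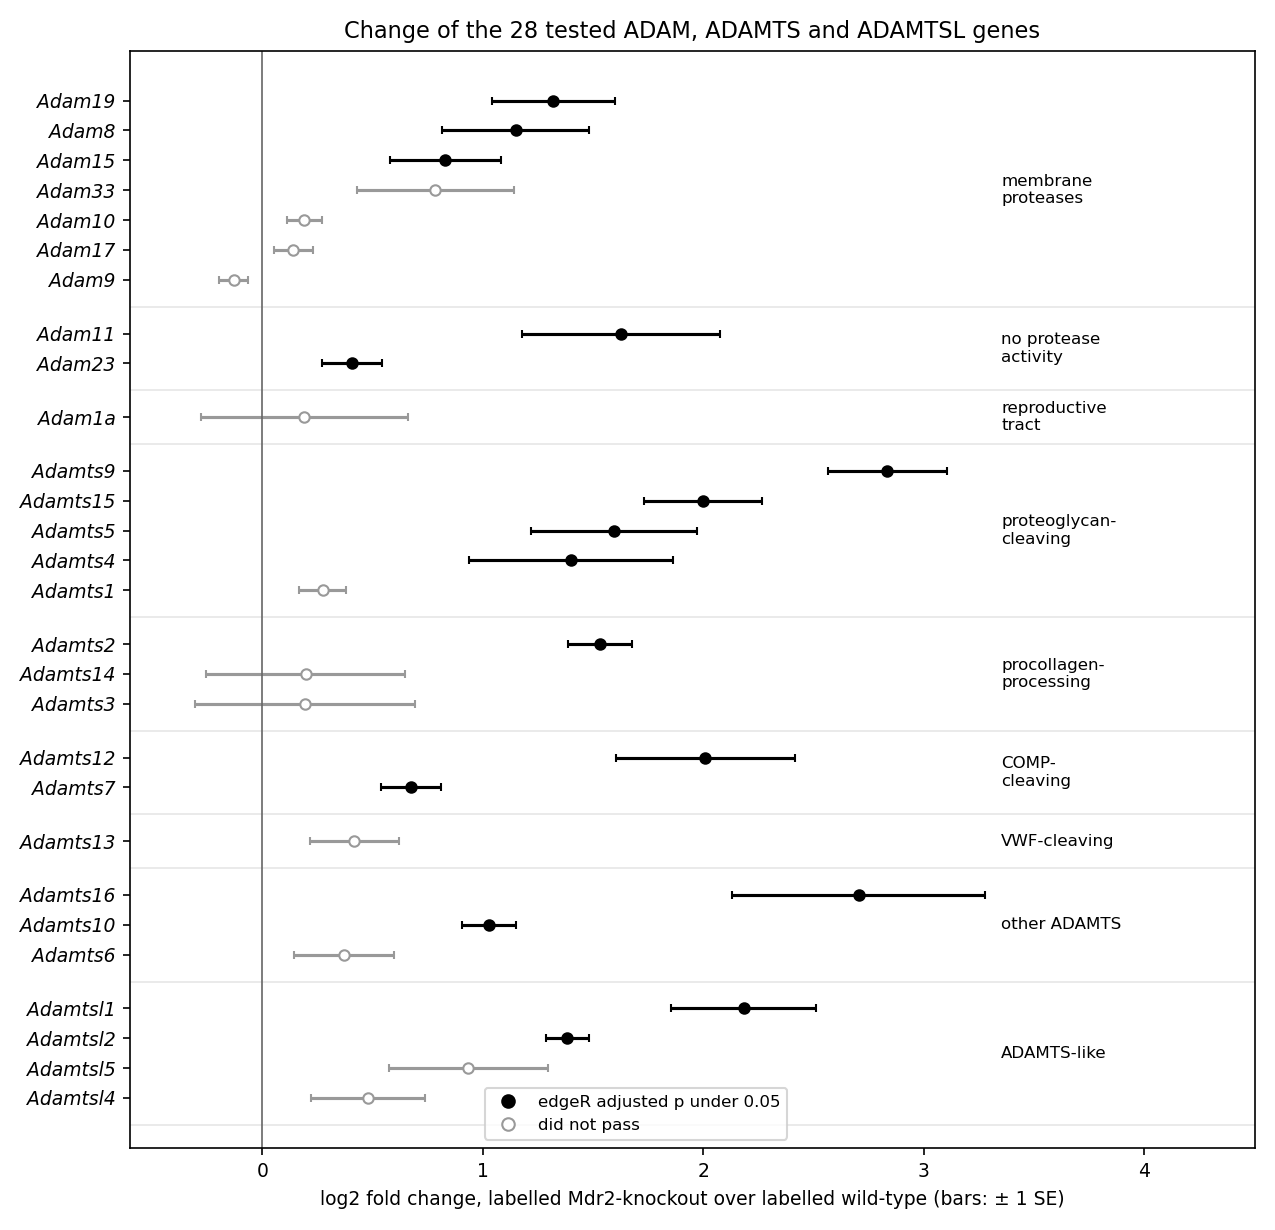
Log2 fold change (labelled Mdr2-knockout over labelled wild-type, x axis) of the 28 tested genes, grouped by role from top to bottom, with bars of 1 SE. Filled points passed an edgeR adjusted p of 0.05. Adamts9 at 2.83 and Adamts16 at 2.70 lie farthest to the right, and Adam9 at -0.13 is the point left of 0.

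In these bulk samples, more cells of a type and more RNA per cell cannot be told apart. Marker genes of several cell types moved with the labelled groups. The shares of all tested genes, for comparison, were 20.9% higher and 16.3% lower. Of 20 stellate cell and fibroblast markers, 14 were higher and 0 lower. Their summed level was 440 to 526 CPM in labelled Mdr2-knockout and 195 to 286 CPM in labelled wild-type libraries. The markers of this list that did not pass were Reln, Lrat, Ngfr, Tagln, Colec11 and Acta2. All 14 tested cholangiocyte markers were higher (427 to 467 against 70.5 to 90.4 CPM), as were 11 of 15 monocyte and macrophage markers (547 to 598 against 218 to 385 CPM) and 3 of 5 neutrophil markers (15.2 to 17.4 against 4.51 to 10.8 CPM). Of 15 endothelial markers 3 were higher and 3 lower (423 to 451 against 405 to 480 CPM). The 3 tested T, NK and B cell markers did not pass (5.94 to 7.84 against 4.13 to 7.57 CPM), and the 1 tested mesothelial marker was higher (2.11 to 4.07 against 0.702 to 0.954 CPM). Of 14 hepatocyte markers, 10 were lower and 0 higher, with 81288 to 84137 CPM in labelled Mdr2-knockout and 131541 to 143252 CPM in labelled wild-type libraries; hepatocyte transcripts were thus abundant in every library of the labelled tissue. Vwf and Trem2 stand both in a marker list and in a list of substrates below. The neutrophil marker Ly6g had 0 counts in all 6 libraries. The part of these cell types in the changes of the protease genes was not tested.

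Of the 5 tested ADAMTS proteases that cleave proteoglycans such as versican and aggrecan, 4 were higher, beside 20.9% of all tested genes. Adamts9, which cuts versican, had 5.70, 4.53 and 7.12 CPM in labelled Mdr2-knockout replicates 1 to 3, against 0.954, 0.830 and 0.631 CPM in labelled wild-type replicates 1 to 3. The lowest labelled Mdr2-knockout library was several times above the highest labelled wild-type library. The log2 fold change was 2.83 (SE 0.27, edgeR adjusted p = 5.29e-05), which stood at the 98.3rd percentile of all tested genes. Adamts15, a further versican-cleaving protease, had 3.27, 3.52 and 4.94 CPM against 0.826, 1.02 and 1.07 CPM in labelled wild-type (log2 fold change 2.00, SE 0.27, edgeR adjusted p = 0.000402). Again no library of either labelled group reached the range of the other. Adamts9 shares 9.18% of its exonic bases with a coding gene on the opposite strand.

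Adamts5 and Adamts4 are the aggrecanases first known from cartilage. Adamts5 had 4.81, 2.82 and 7.79 CPM in labelled Mdr2-knockout libraries, against 2.03, 1.47 and 1.58 CPM in labelled wild-type libraries. The labelled Mdr2-knockout libraries spread widely, with replicate 3 far above replicate 2, but all lay above the other group (log2 fold change 1.60, SE 0.38, edgeR adjusted p = 0.0107). Adamts4 had 2.08, 1.51 and 1.46 CPM against 0.191, 0.575 and 1.14 CPM in labelled wild-type, where replicate 3 came close to the labelled Mdr2-knockout range (1.40, SE 0.46, edgeR adjusted p = 0.0371). The Adamts4 call was lost in each fit without labelled Mdr2-knockout replicate 1, 2 or 3 or labelled wild-type replicate 1 or 2 (log2 fold change 0.96 to 1.49, edgeR adjusted p of 0.0552 to 0.121). Without labelled wild-type replicate 3 it was kept, at a log2 fold change of 2.11 (edgeR adjusted p = 0.0082). Adamts5 narrowly failed to pass without labelled wild-type replicate 2 (log2 fold change 1.49) and passed when any other single library was left out.

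Adamts1, the most abundant of the proteoglycan-cleaving members by FPKM, had 14.5, 15.0 and 17.7 CPM in labelled Mdr2-knockout and 12.9, 12.8 and 13.3 CPM in labelled wild-type libraries. The groups did not overlap, yet the difference did not pass (log2 fold change 0.27, SE 0.11, edgeR adjusted p = 0.0691). It passed with upper-quartile scaling (0.33) and with total counts (0.57). The ratio of Adamts9 to Adamts1 counts within a library does not depend on scaling. It was 0.366 ± 0.0555 in labelled Mdr2-knockout and 0.0620 ± 0.0135 in labelled wild-type libraries (SD, n = 3 each; exact permutation p = 0.1, two-sided, the smallest that 3 against 3 allows). Adamts8 and Adamts20 had 1 and 2 counts over the labelled Mdr2-knockout group and 0 over the labelled wild-type group, too few to compare.

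Adamts1 and Adamts5 are neighbours on chromosome 16 (GRCm38, 85793827 to 85803113 and 85856173 to 85901828), 53059 bases apart on the same strand with no coding gene annotated between them. Adamts15 and Adamts8 lie 20109 bases apart on chromosome 9, and Adamts13 and Adamtsl2 lie 69750 bases apart on chromosome 2 with 3 coding genes between them. In each of these pairs 1 gene passed the test and the other did not pass or was too low to test. Other neighbouring members (Adam4 and Adam21, Adam5 and Adam32, Adam32 and Adam9) held no gene that passed. For Adamts5 and Adamts1, and for Adamtsl2 and Adamts13, neighbours were compared as a ratio within each library. With 3 libraries per group the permutation p cannot fall under 0.1, so it cannot decide whether neighbours differ. Adamts5 to Adamts1 was 0.320 ± 0.127 in labelled Mdr2-knockout and 0.130 ± 0.0239 in labelled wild-type libraries (SD, n = 3 each; exact permutation p = 0.1, two-sided). For Adamtsl2 to Adamts13 it was 5.67 ± 1.27 and 2.87 ± 0.370 (SD, n = 3 each; exact permutation p = 0.1, two-sided).

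Procollagen is trimmed at its amino end by ADAMTS2, ADAMTS3 and ADAMTS14 before fibrils form. Adamts2, the main enzyme for procollagen I, had 19.6, 16.4 and 15.9 CPM in labelled Mdr2-knockout replicates 1 to 3, against 6.17, 4.92 and 6.88 CPM in labelled wild-type replicates 1 to 3. The groups were well apart, and the log2 fold change was 1.53 (SE 0.15, edgeR adjusted p = 5.48e-05). Adamts14 was far lower, at 0.778 ± 0.217 CPM in labelled Mdr2-knockout and 0.677 ± 0.347 CPM in labelled wild-type libraries (SD, n = 3 each), and did not pass (0.20, SE 0.45, edgeR adjusted p = 0.76). Adamts3, which also acts in the maturation of the lymphatic growth factor VEGF-C, stood at 0.558 ± 0.232 and 0.486 ± 0.237 CPM (0.19, SE 0.50, edgeR adjusted p = 0.789). At these levels of 23 to 46 counts over a group, a moderate difference would not be detectable.

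Both ADAMTS proteases known to cleave cartilage oligomeric matrix protein were higher, as were 20.9% of all tested genes. Adamts12 had 1.64, 2.06 and 2.75 CPM in labelled Mdr2-knockout libraries, against 0.318, 0.383 and 0.883 CPM in labelled wild-type libraries (log2 fold change 2.01, SE 0.41, edgeR adjusted p = 0.00377). Adamts7 had 15.1, 15.4 and 11.8 CPM against 9.22, 7.92 and 9.40 CPM (0.67, SE 0.14, edgeR adjusted p = 0.00368). For both genes the labelled groups did not overlap, although labelled Mdr2-knockout replicate 3 was the highest of its group for Adamts12 and the lowest for Adamts7.

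Adamts13, which cuts von Willebrand factor in plasma and is made by hepatic stellate cells, did not pass. It had 7.69, 5.84 and 5.46 CPM in labelled Mdr2-knockout and 4.26, 4.02 and 5.93 CPM in labelled wild-type libraries (log2 fold change 0.42, SE 0.20, edgeR adjusted p = 0.131). Labelled wild-type replicate 3 lay inside the labelled Mdr2-knockout range, and without that library the gene passed (0.60). The gene of its substrate, Vwf, was higher, at 20.1 CPM against 12.7 CPM on average (0.66, edgeR adjusted p = 0.0174).

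Among the remaining ADAMTS genes, Adamts10 and Adamts16 passed. Adamts10, whose protein binds fibrillin, had 13.6, 12.3 and 13.4 CPM in labelled Mdr2-knockout and 7.12, 6.003 and 6.12 CPM in labelled wild-type libraries (log2 fold change 1.03, SE 0.12, edgeR adjusted p = 0.000203). Adamts16 was measured by 11, 11 and 13 counts against 2, 1 and 1 counts, a ratio of 6.97 with an exact 95% counting interval of 2.49 to 27.0 (edgeR adjusted p = 0.0048). It entered the test through the labelled Mdr2-knockout libraries alone. Adamts6, the closest relative of Adamts10, had 3.51 ± 0.599 CPM in labelled Mdr2-knockout and 2.71 ± 0.533 CPM in labelled wild-type libraries (SD, n = 3 each) and overlapping groups (0.37, SE 0.23, edgeR adjusted p = 0.222). Adamts17 had 1 and 2 counts, and Adamts19 3 and 0 counts, over the labelled Mdr2-knockout and labelled wild-type groups.

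**Figure D2:**
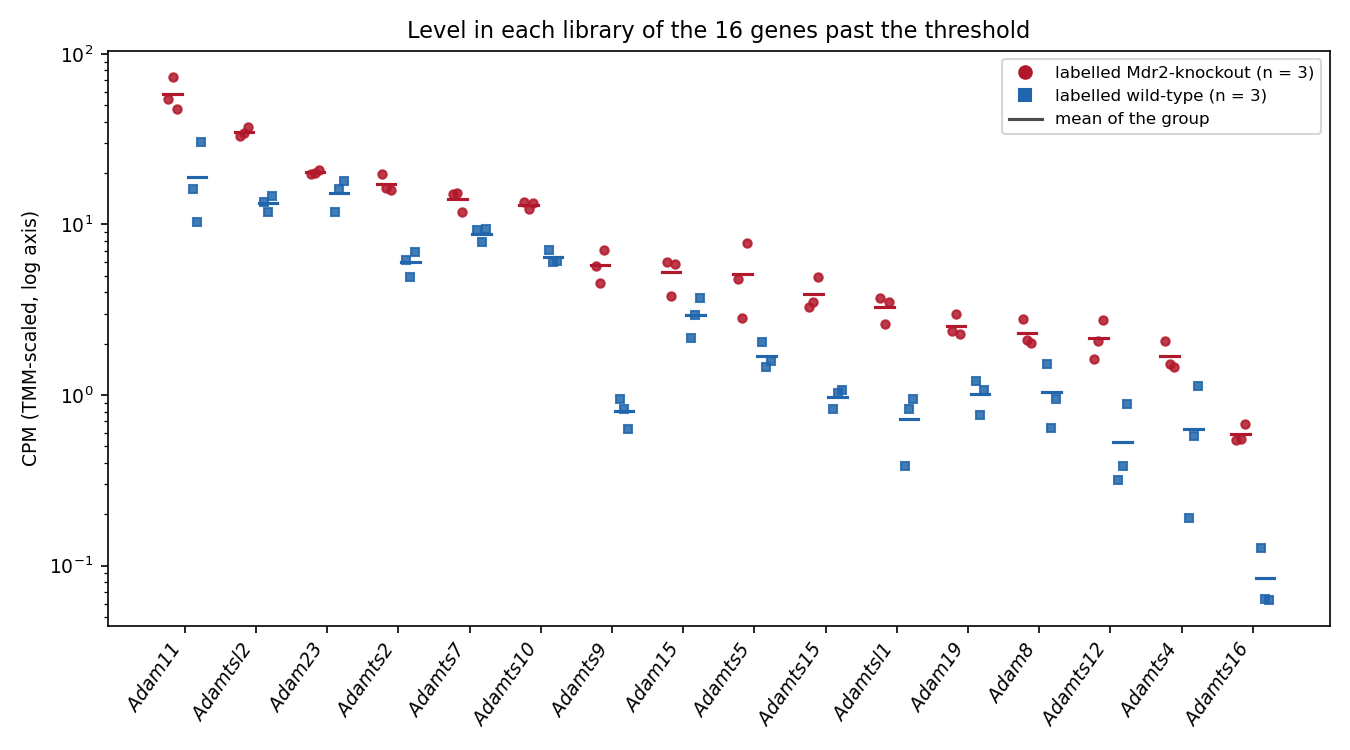
Level of the 16 genes past the threshold in each library, in CPM on a log axis, with labelled Mdr2-knockout libraries as circles to the left of the labelled wild-type libraries as squares, and the group mean as a bar. No gene has overlapping groups, though the genes shown were picked by their adjusted p. Among all tested genes, 27.6% were higher under the Mdr2-knockout label without overlap. Adam11 spreads from 47.6 to 73.2 CPM and from 10.3 to 30.3 CPM within its groups, while Adamtsl2 stays within 33.2 to 37.3 and 11.9 to 14.6 CPM.

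The ADAMTS-like genes, which encode no protease, included the smallest adjusted p among the 28 tested members. Adamtsl2, a fibrillin-binding protein whose human gene is mutated in geleophysic dysplasia, had 33.2, 34.2 and 37.3 CPM in labelled Mdr2-knockout replicates 1 to 3. Labelled wild-type replicates 1 to 3 had 13.6, 11.9 and 14.6 CPM. Both groups were tight relative to the gap between them (log2 fold change 1.38, SE 0.10, edgeR adjusted p = 8.23e-06). Adamtsl1, also called punctin, had 3.72, 2.62 and 3.53 CPM against 0.381, 0.830 and 0.946 CPM (2.18, SE 0.33, edgeR adjusted p = 0.000797).

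Adamtsl3 lay under the filter with 35 counts over the labelled Mdr2-knockout and 1 count over the labelled wild-type group. Its ratio was 27.9, with an exact 95% counting interval of 4.69 to 1133, and each labelled Mdr2-knockout library exceeded each labelled wild-type library. Without the low-count filter it passed (edgeR adjusted p = 0.00229). That fit rests on the same few counts, nearly all from the labelled Mdr2-knockout group, and adds no separate support. Adamtsl4, a further fibrillin-binding member, had 3.16 ± 0.303 CPM in labelled Mdr2-knockout and 2.26 ± 0.697 CPM in labelled wild-type libraries (SD, n = 3 each) and did not pass (0.48, SE 0.26, edgeR adjusted p = 0.17). Adamtsl5 had 0.976 ± 0.206 CPM and 0.508 ± 0.00309 CPM (0.93, SE 0.36, edgeR adjusted p = 0.0651). The groups did not overlap for either gene.

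Of the 7 tested membrane proteases, 3 were higher and 4 did not pass, where 20.9% of all tested genes were higher. The 3 most abundant by FPKM, Adam9, Adam10 and Adam17, were among those that did not. Adam10, which sheds Notch receptors and cadherins, had 34.4, 36.9 and 38.8 CPM in labelled Mdr2-knockout and 31.5, 30.7 and 34.3 CPM in labelled wild-type libraries (log2 fold change 0.19, SE 0.08, edgeR adjusted p = 0.0814). Adam17, which releases tumour necrosis factor and ligands of the epidermal growth factor receptor, had 24.3, 27.8 and 24.7 CPM against 24.8, 22.2 and 22.7 CPM (0.14, SE 0.09, edgeR adjusted p = 0.237). Adam10 was just apart between the groups and Adam17 overlapped. Adam10 passed with upper-quartile scaling (0.25), and both passed with total counts (0.48 and 0.43).

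Adam9, a widely expressed sheddase, was the only tested member with a negative log2 fold change. It had 90.1, 94.8 and 95.9 CPM in labelled Mdr2-knockout and 98.5, 105 and 104 CPM in labelled wild-type libraries (-0.13, SE 0.07, edgeR adjusted p = 0.142). With total-count scaling its value was 0.16, so its direction depends on the scaling. Total counts moved the median of all tested genes by 0.29 relative to TMM. Within a library, 0.392 ± 0.0117 Adam10 counts were found per Adam9 count in labelled Mdr2-knockout and 0.314 ± 0.0188 in labelled wild-type libraries (SD, n = 3 each; exact permutation p = 0.1, two-sided). The Adam10 to Adam17 ratio was 1.44 ± 0.123 and 1.39 ± 0.120 (SD, n = 3 each; exact permutation p = 0.7, two-sided). With 3 libraries per group, 0.1 is the smallest p this permutation can give.

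The membrane proteases past the threshold were Adam19, Adam8 and Adam15. Adam19, a sheddase of neuregulin, had 2.38, 2.97 and 2.29 CPM in labelled Mdr2-knockout and 1.21, 0.766 and 1.07 CPM in labelled wild-type libraries (log2 fold change 1.32, SE 0.28, edgeR adjusted p = 0.00487). Adam8, known from macrophages and neutrophils, had 2.78, 2.11 and 2.03 CPM against 1.53, 0.639 and 0.946 CPM (1.15, SE 0.33, edgeR adjusted p = 0.0216). Adam15, or metargidin, had 6.002, 3.83 and 5.87 CPM against 2.16, 2.94 and 3.72 CPM, so that labelled Mdr2-knockout replicate 2 and labelled wild-type replicate 3 nearly met (0.83, SE 0.25, edgeR adjusted p = 0.0253).

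The calls of Adam8 and Adam15 depended on single libraries. Adam8 did not pass without labelled Mdr2-knockout replicate 1 or labelled wild-type replicate 2 or 3 (edgeR adjusted p of 0.051 to 0.0822). Adam15 did not pass without labelled Mdr2-knockout replicate 1 or 3 or labelled wild-type replicate 1 or 2 (edgeR adjusted p of 0.0725 to 0.0906). Adam15 also shares 20.6% of its annotated exonic bases with an antisense transcript, and Adam19 shares 8.25% and 6.75% with 2 others. Whether strand was used in the counting is not stated in the sources used here.

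Adam33, a protease of mesenchymal cells with a level close to that of Adam8 by FPKM, did not pass. It had 1.59, 1.51 and 2.39 CPM in labelled Mdr2-knockout and 0.763, 0.830 and 1.58 CPM in labelled wild-type libraries, with overlap (log2 fold change 0.78, SE 0.36, edgeR adjusted p = 0.107). Without labelled wild-type replicate 3 it passed (1.18). Adam12, or meltrin alpha, lay under the filter with 36 and 14 counts over the labelled Mdr2-knockout and labelled wild-type groups, a ratio of 2.05 (exact 95% counting interval 1.08 to 4.11) with overlapping libraries. Adam28 had 1 and 0 counts. Counting intervals here cover counting error only.

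Adam11, Adam22 and Adam23 encode ADAM proteins without protease activity, known from neurons as receptors of LGI proteins, and their coding sequences lacked the zinc signature. Adam11 had 54.4, 73.2 and 47.6 CPM in labelled Mdr2-knockout replicates 1 to 3, against 16.1, 10.3 and 30.3 CPM in labelled wild-type replicates 1 to 3. The spread within each group was wide, and the groups did not overlap (log2 fold change 1.62, SE 0.45, edgeR adjusted p = 0.0495). The call was lost without each of the 3 labelled Mdr2-knockout libraries and without labelled wild-type replicate 1 or 2 (edgeR adjusted p of 0.0619 to 0.144) and without the low-count filter (0.0696); over all alternatives it ran between 0.00373 and 0.213. Adam23 had 19.7, 20.0 and 20.8 CPM against 11.8, 16.1 and 17.9 CPM (0.41, SE 0.14, edgeR adjusted p = 0.0393). Its call was also lost without each of those same 5 libraries (edgeR adjusted p of 0.0781 to 0.105). Adam22 lay under the filter, with 32 counts over the labelled Mdr2-knockout and 2 over the labelled wild-type group. Its ratio was 12.8 (exact 95% counting interval 3.25 to 110). Without the low-count filter Adam22 passed (edgeR adjusted p = 0.0113), on those same few counts, so that fit adds no separate support.

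Genes of the male reproductive tract, whose ADAM products act in sperm maturation and fertilization, were at or near the limit of detection. Adam1a, which encodes fertilin alpha, was the only tested gene of this group, at 0.896 ± 0.472 CPM in labelled Mdr2-knockout and 0.783 ± 0.204 CPM in labelled wild-type libraries (SD, n = 3 each; log2 fold change 0.19, SE 0.47, edgeR adjusted p = 0.776). It shares 63.7% of its exonic bases with a predicted coding gene and 24.04% with Mapkapk5 on the same strand, so its reads may not be its own. Adam32, Adam4, Adam2, Adam5 and Adam21 had 19, 17, 5, 2 and 0 counts over the labelled Mdr2-knockout group and 12, 7, 9, 2 and 4 counts over the labelled wild-type group. The libraries overlapped for each of these 5 genes. Adam32 begins 806 bases from Adam9 on chromosome 8, and the pair differ widely in counts.

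**Figure D3:**
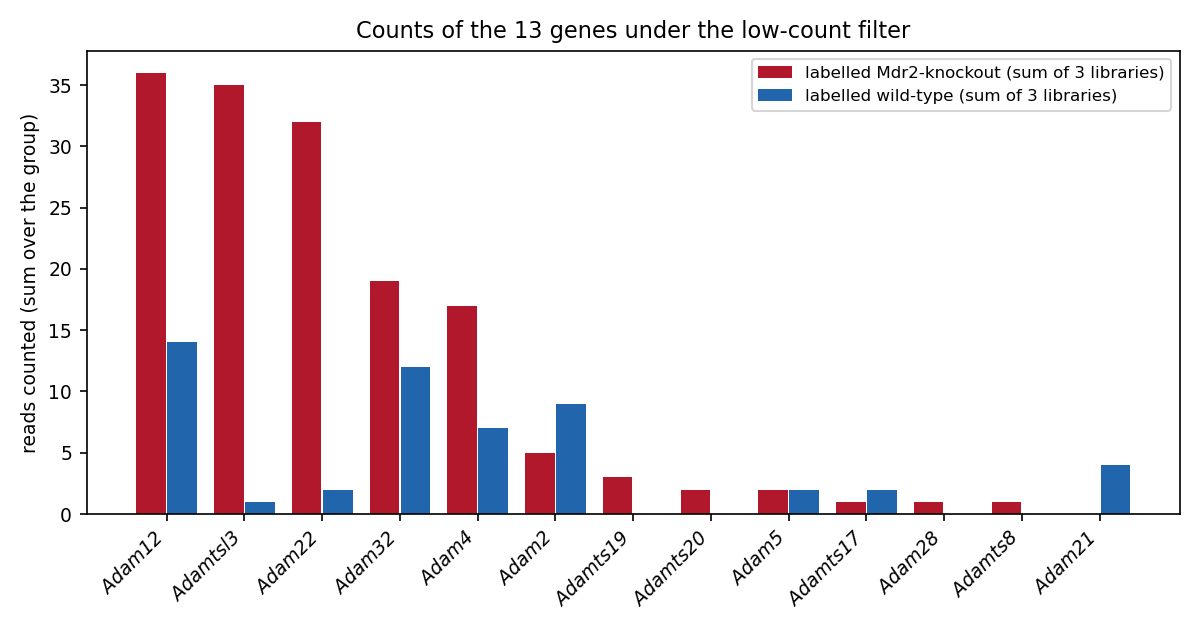
Reads counted over the 3 libraries of each labelled group for the 13 genes under the low-count filter, with labelled Mdr2-knockout as the left bar and labelled wild-type as the right bar. Adamtsl3 has 35 and 1 counts and Adam22 has 32 and 2 counts, while the remaining bars are low or less unequal.

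Levels of different genes were compared per length, with the authors' FPKM values, which are scaled by total counts. Adam9 had the highest FPKM in both groups, at 25.2 ± 0.745 in labelled Mdr2-knockout and 22.5 ± 0.407 in labelled wild-type libraries (SD, n = 3 each). In labelled Mdr2-knockout libraries it was followed by Adam11 (12.2 ± 2.68), Adamtsl2 (10.0 ± 0.622), Adam10 (8.56 ± 0.501) and Adam17 (6.31 ± 0.432 FPKM). In labelled wild-type libraries the order was Adam10 (6.13 ± 0.373), Adam17 (4.68 ± 0.361), Adam11 (3.23 ± 1.74) and Adamtsl2 (3.13 ± 0.353 FPKM). Adam11 and Adamtsl2 did not differ beyond their spread in either group. Adamts9 stood at rank 14 of 41 in labelled Mdr2-knockout and rank 24 in labelled wild-type libraries, with 0.795 ± 0.181 and 0.0903 ± 0.0192 FPKM. Because FPKM follow total counts, Adam9 is higher under the Mdr2-knockout label in FPKM and lower in TMM-scaled CPM.

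**Figure D4:**
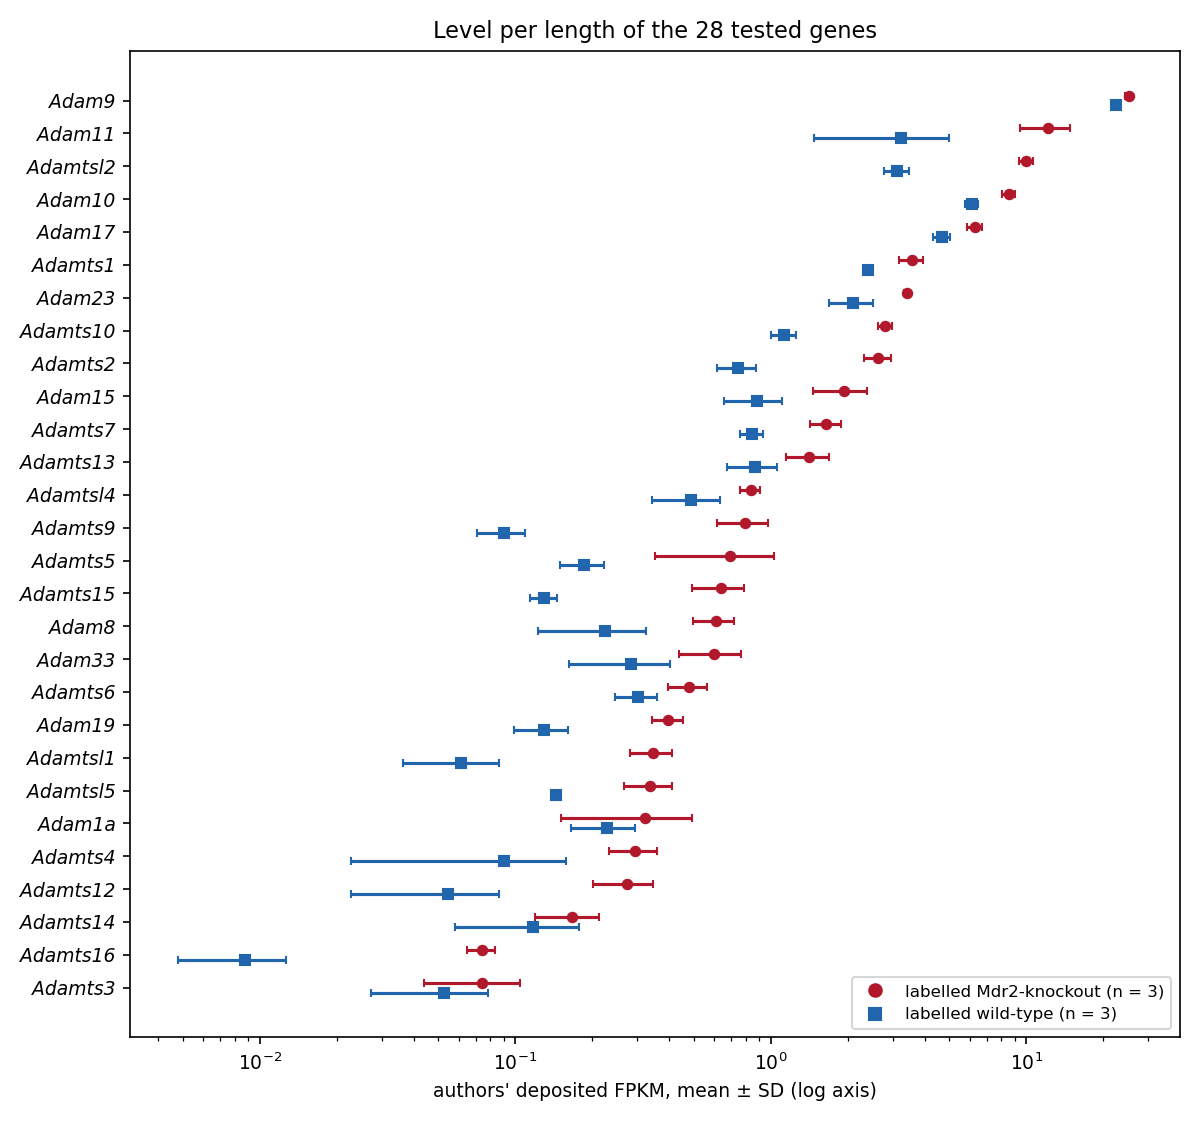
Mean level per length of the 28 tested genes in the authors' FPKM (log axis, bars of 1 SD over 3 libraries), with labelled Mdr2-knockout as circles above labelled wild-type as squares for each gene. Adam9 is highest, at 25.2 and 22.5 FPKM, and the distance between the symbols is widest for low genes such as Adamts9 and Adamts16.

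Summed over the 41 members, the family had 383 ± 8.64 CPM in labelled Mdr2-knockout and 264 ± 20.4 CPM in labelled wild-type libraries (SD, n = 3 each), a ratio of 1.45. Adam9 made up 24.4% of this sum in the labelled Mdr2-knockout and 38.8% in the labelled wild-type group. Adam11 alone accounted for 33.3% of the difference between the sums, Adamtsl2 for 18.2% and Adamts2 for 9.56%. Without Adam11 the sums were 324 ± 10.3 and 245 ± 10.7 CPM, a ratio of 1.32. Without Adam9 they were 289 ± 6.35 and 162 ± 19.5 CPM, a ratio of 1.79. Among the labelled wild-type libraries, replicate 3 had the highest level for 17 of the 28 tested members and the lowest for 4. Among the marker lists, that library had the highest sum of its group for stellate cells (286 CPM), macrophages (385 CPM) and endothelial cells (480 CPM). The same held for neutrophils (10.8 CPM) and for T, NK and B cells (7.57 CPM). Its sums were the lowest for cholangiocytes (70.5 CPM) and hepatocytes (131541 CPM), and in between for mesothelium (0.820 CPM). A link to the levels of the protease genes was not tested. In the labelled Mdr2-knockout group, replicates 1, 2 and 3 were highest for 9, 6 and 13 members.

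Grouped by the zinc signature, 12 of the 22 tested members with a match and 4 of the 6 without were higher. The share over all tested genes was 20.9%. The median log2 fold changes were 0.81 with a match and 1.16 without. The groups are small and no difference between them was tested. Both kinds held genes past the threshold, that is, genes for enzymes and genes for proteins without protease activity.

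Of 16 tested regulators of shedding, 5 were higher and 4 lower, beside 20.9% and 16.3% of all tested genes. The higher count was 2 without labelled wild-type replicate 2 and 3 with any other single library left out, and also 3 with DESeq2 or without the low-count filter. The lower count was 1 with total counts. Rhbdf1, encoding an iRhom, the family that carries ADAM17 to the cell surface, was at 13.7 ± 0.125 CPM in labelled Mdr2-knockout and 5.12 ± 0.893 CPM in labelled wild-type libraries (SD, n = 3 each; log2 fold change 1.42, edgeR adjusted p = 6.87e-05). Its relative Rhbdf2 was at 24.3 ± 4.05 and 16.3 ± 0.740 CPM (0.58, edgeR adjusted p = 0.00453). Of 5 tested tetraspanins that escort ADAM10, 1 was lower, 1 was higher and 3 did not pass (Tspan14 at -0.07, Tspan15 at 0.23 and Tspan17 at 0.25). Tspan33 fell to 10.7 ± 0.352 CPM in labelled Mdr2-knockout, against 28.1 ± 2.37 CPM in labelled wild-type libraries (-1.39, edgeR adjusted p = 7.19e-06), and Tspan5 was higher at 0.927 ± 0.218 against 0.338 ± 0.0948 CPM (1.43, edgeR adjusted p = 0.0217). The Tspan5 call was lost without labelled Mdr2-knockout replicate 1 or labelled wild-type replicate 1 or 2. Pcsk7 and Pcsk6, proprotein convertases of the kind that remove ADAM prodomains, were lower (-0.47 and -0.38, edgeR adjusted p of 0.000909 and 0.00463). Both calls were lost with total-count scaling. Of the other listed convertases, Furin was lower (-0.37, edgeR adjusted p = 0.00883) and Pcsk5 was higher (0.29, edgeR adjusted p = 0.0444).

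Of 10 tested genes for inhibitors, clearance and sugar modification of thrombospondin repeats, 4 were higher and 1 lower. The shares of all tested genes were 20.9% and 16.3%. With total counts 7 genes of this list were higher and 0 lower. The lower count was 2 with DESeq2 and without labelled wild-type replicate 3. Timp3, the main tissue inhibitor of ADAM17 and of several ADAMTS proteases, was among the higher, with a log2 fold change of 0.68. The 3 higher genes with the smallest p were Timp2 (1.68, edgeR adjusted p = 7.19e-06), Timp1 (3.55, edgeR adjusted p = 0.000153) and Thsd4, also called Adamtsl6 (2.14, edgeR adjusted p = 0.00031). Lrp1, the endocytic receptor that clears several ADAMTS proteases, was lower at 1462 ± 104 CPM in labelled Mdr2-knockout and 2064 ± 126 CPM in labelled wild-type libraries (SD, n = 3 each; -0.50, edgeR adjusted p = 0.00199), and did not pass with total counts. Timp3 was chosen for mention after its value was seen.

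Among 36 tested genes for membrane proteins that ADAMs shed, 16 were higher and 4 lower, beside 20.9% and 16.3% of all tested genes. The lower count was 2 with total counts. The higher genes with the smallest p were Cdh1, encoding E-cadherin, at 131 ± 11.7 CPM in labelled Mdr2-knockout and 41.8 ± 6.76 CPM in labelled wild-type libraries (SD, n = 3 each; log2 fold change 1.65), App, the amyloid precursor gene (0.84), and the chemokine gene Cxcl16, at 15.1 ± 2.33 and 5.33 ± 0.196 CPM. The lower genes were led by the syndecan gene Sdc4 (-0.91) and the interleukin 6 receptor gene Il6ra (-0.69). Their edgeR adjusted p ran from 2.71e-05 for Cdh1 to 0.00152 for Il6ra.

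Of 18 tested genes for matrix and other proteins that ADAMTS proteases cut or bind, 15 were higher and 2 lower (1 with total counts). The shares of all tested genes were 20.9% and 16.3%, and the median log2 fold change of the list was 1.65. Its summed level was lower, at 4371 to 4862 CPM in labelled Mdr2-knockout and 5872 to 6282 CPM in labelled wild-type libraries. Fn1 and Lrp1 had the highest levels in the list. Col5a2 was at 15.8 ± 1.35 CPM in labelled Mdr2-knockout and 2.26 ± 0.453 CPM in labelled wild-type libraries (SD, n = 3 each; 2.80, edgeR adjusted p = 2.66e-06). Ltbp2, which encodes a latent TGF-beta binding protein, had a log2 fold change of 3.36. The fibrillin gene Fbn2 had 330 counts over the labelled Mdr2-knockout and 1 over the labelled wild-type group, a ratio of 263 (exact 95% counting interval 46.9 to 10420). Fn1, the fibronectin gene, was lower (-0.67, edgeR adjusted p = 0.000243), as was Lrp1, which stands in 3 of these lists.

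**Figure D5:**
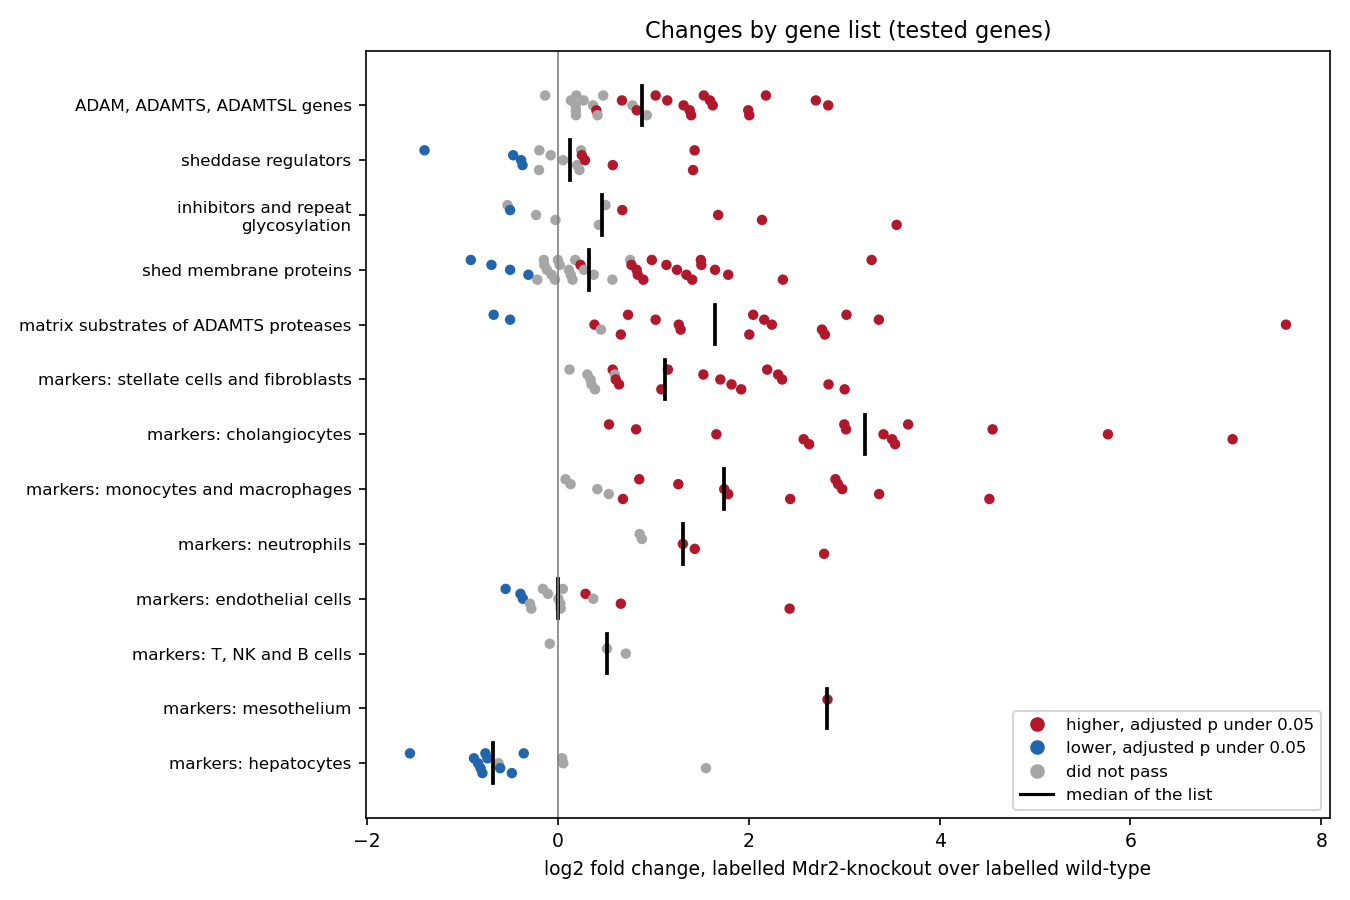
Log2 fold change (labelled Mdr2-knockout over labelled wild-type) of each tested gene in the family, in lists of its regulators, inhibitors and substrates, and in cell type marker lists, with the median of each list as a black bar. The family median of 0.88 lies below those of the stellate cell and fibroblast markers (1.12) and the cholangiocyte markers (3.22), and the hepatocyte markers have a median of -0.68. The Fbn2 point at 7.63 rests on 1 count in labelled wild-type and depends on the prior count of the fit.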

How the data were processed

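RNA from mouse liver was sequenced in 3 samples labelled Mdr2-knockout and 3 labelled wild-type. The authors deposited whole-number counts by gene symbol, not normalized, and FPKM values for the same genes. The build mm10 and the tools HISAT2, Bowtie2, SAMtools, StringTie, Cufflinks, HTSeq, Trimmomatic and DESeq are named in the submitters' processing notes. What each tool did, its version, the gene annotation and the use of strand were not given in the sources used here. FPKM deposited by the authors were proportional to the counts scaled by library total (within 1% in 100% of 11443 genes with at least 10 counts in every library) and are no independent measurement. Columns carry M or N with a number: M begins the titles of the Mdr2-knockout samples, and N was taken as wild-type by elimination; 0 columns were left without a sample.

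The tests used edgeR 4.0.16 under R 4.3.3 on the deposited counts: filterByExpr (minimum count 10, minimum total 15), TMM factors, robust quasi-likelihood F test with group as the only term, and Benjamini-Hochberg adjustment over all 12612 tested genes at 0.05. Positive log2 fold changes mean higher in labelled Mdr2-knockout; SE were derived from the F statistic. CPM use TMM-scaled library sizes. A floor of 3 counts in a library equals 0.149 to 0.192 CPM. No 2 replicates agreed within sampling noise (lowest chi-square per degree of freedom 16.3). Signatures, coordinates and exon overlaps came from GENCODE M21 (GRCm38, the build named mm10). Alternatives were DESeq2 1.42.0, limma-voom (limma 3.58.1), scaling by RLE or upper-quartile factors or by total counts, 2 other filters, a test against 1.5-fold, a replicate block and leaving out each library.

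The members, the gene lists and the rule for named genes were chosen with earlier results of these data known. The rule names each member of the family, and from each list that is not a marker list the 3 tested genes with the smallest p in each direction, and Abcb4. Vwf, Furin and Pcsk5 were named after their values were seen.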

Additional observations from a re-analysis of the deposited data

How the results depend on the processing

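Of the 16 members called higher, 9 stayed so in each of the alternatives that tested them: Adam19, Adamts2, Adamts9, Adamts10, Adamts12, Adamts15, Adamts16, Adamtsl1 and Adamtsl2. Of these, Adamts16 was not tested with the stricter filter, and it entered the main test through the labelled Mdr2-knockout libraries alone. The count of higher members was 16 with RLE factors, DESeq2 and limma-voom, 18 with upper-quartile factors, 24 with total counts, 17 without the low-count filter and 15 with the stricter filter, and 11 to 18 with 1 library left out; it was 0 lower in each. Against a 1.5-fold change 9 members were higher, as were 1016 of all tested genes (82 lower) and 24 of the genes in the 4 lists of regulators, inhibitors and substrates (2 lower). With total counts 5943 of all tested genes were higher and 330 lower, and 4 of those list genes were lower; 94.7% of calls were then higher, against 56.2% with TMM, 67.2% with upper-quartile and 54.1% with RLE factors.

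The replicate block called 14 members higher, losing Adam11 and Adamts4 (edgeR adjusted p = 0.163 and 0.0584, over ranges of 0.00373 to 0.213 and 0.0082 to 0.207 across alternatives). Equal replicate numbers are not documented as pairs, and same-numbered samples correlated at 0.103, 0.0583 and -0.0733 in their deviations from the group means, so the numbers were not taken to pair samples.

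Signs turned only in members that did not pass: Adam9 with total counts (0.16), Adam1a without labelled Mdr2-knockout replicate 1 or 3 (-0.027 and -0.067, at most 0.57 with 1 library left out), Adamts14 without labelled Mdr2-knockout replicate 3 or labelled wild-type replicate 1 (-0.008 and -0.15, at most 0.59), and Adamts3 without labelled Mdr2-knockout replicate 2 or labelled wild-type replicate 1 (-0.17 and -0.046, at most 0.65). The cause was not tested. For members with under 50 counts over a group, depth limits what can be seen.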
